A study of Mus musculus with 8 samples.

Results

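The genes described here are 10 genes of the cellular response to low oxygen and of arginine breakdown, Hif1a, Arnt, Egln1, Egln3, Vegfa, Bnip3, Bnip3l, Hilpda, Pim1 and Arg2, in mouse spleen neutrophils with and without the chemokine receptor Cxcr2. They were chosen by symbol, through the Ensembl identifiers that GENCODE M21 gives them, and each of the 10 was found among the 55414 genes listed and passed the filter on low counts that left 16778 genes tested. The samples were 4 libraries from WT mice (FVB-WT) and 4 from Cxcr2-/- mice (FVB-Cxcr2-/-), aged 10 weeks, on the FVB background, with 1 mouse per library. The deletion is in the germline, so that every cell type of the Cxcr2-/- animals lacks the receptor and not neutrophils alone. Cells were sorted from the spleen as CD45+ CD11b+ Ly6G+ F4/80- after magnetic enrichment for CD11b, and their RNA was sequenced after removal of ribosomal RNA.

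Hypoxia-inducible factor (HIF) is a transcription factor made of an oxygen-regulated alpha subunit, such as HIF-1alpha (Hif1a), and a stable beta subunit (Arnt). When oxygen is present, prolyl hydroxylases (the Egln genes) modify the alpha subunit, which the von Hippel-Lindau ubiquitin ligase then marks for destruction, and when oxygen is low the alpha subunit persists and switches on genes of glycolysis, vessel growth and mitochondrial turnover. Its activity is therefore set mainly at the level of the protein, which was not measured here. In neutrophils, which rely on glycolysis, HIF-1alpha is known for prolonging survival and sustaining bactericidal function at inflamed sites.

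Depth was similar between groups, with 34220182 to 46233555 counts assigned to genes in the WT libraries and 37549648 to 43789253 in those of Cxcr2-/- mice. Composition differed, as the 10 most abundant genes of a library took 9.4% to 11.6% of these counts in WT and 17.0% to 19.2% in Cxcr2-/- mice. In counts scaled to library size (CPM), Cxcr2 itself had 1719 to 2252 in the WT and 12.9 to 20.7 in the Cxcr2-/- libraries. The neutrophil markers were abundant in each group, with a summed level of 31078 to 44810 CPM over 8 genes in WT and 67647 to 81577 CPM in Cxcr2-/- libraries. Of these markers 6 were higher, 1 was lower and 1 did not pass. The lower one, named after its values were seen, was Csf3r (log2 fold change -1.06, edgeR adjusted p = 1.11e-05). Across all genes tested the median log2 fold change was 0.01, and 23.7% of genes were higher and 21% lower in Cxcr2-/- neutrophils with an adjusted p under 0.05. Scaling by the upper quartile in place of TMM shifted that median by -0.12, to -0.11, and the share of higher genes among those called from 53.0% to 41.2%. The share of read pairs outside genes was 31.4% to 41.5% in WT and 26.7% to 31.9% in Cxcr2-/- libraries, and its use as a covariate, an alternative chosen after seeing the data, is given below as the outside-gene covariate. With this covariate 1599 of all genes were higher and 1486 lower, where the main fit had 3969 and 3526. Calls lost with it below thus stand beside a loss of calls over all genes.

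Of the 10 genes, 4 passed the test, as did 44.7% of all genes tested. These 4 were lower in Cxcr2-/- neutrophils (Pim1, Bnip3, Arg2 and Vegfa), where 21% of all genes tested were, and none was higher. The other 6 did not pass (Hif1a, Arnt, Egln1, Egln3, Bnip3l and Hilpda), and the median log2 fold change of the 10 genes was -0.29. At 1.5-fold or more 3 of the 10 were lower, where 15.7% of all genes tested were. The HIF subunit genes Hif1a and Arnt and the prolyl hydroxylase genes Egln1 and Egln3 were thus among those that did not pass. The remaining prolyl hydroxylase gene, Egln2, is not among the 10 and is given below. A vessel growth factor, a mitophagy receptor, a kinase and the mitochondrial arginase were lower. In these 4 genes the WT and Cxcr2-/- mice did not overlap, as held in that direction for 19.1% of all genes tested. In RNA from sorted cells, fewer cells that express a gene and less RNA of that gene per cell cannot be told apart. Fold changes are Cxcr2-/- over WT from edgeR's quasi-likelihood test, p-values are adjusted over all genes tested by the Benjamini-Hochberg method, levels are CPM scaled by TMM, and errors of levels are SD over 4 mice.

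**Figure D1:**
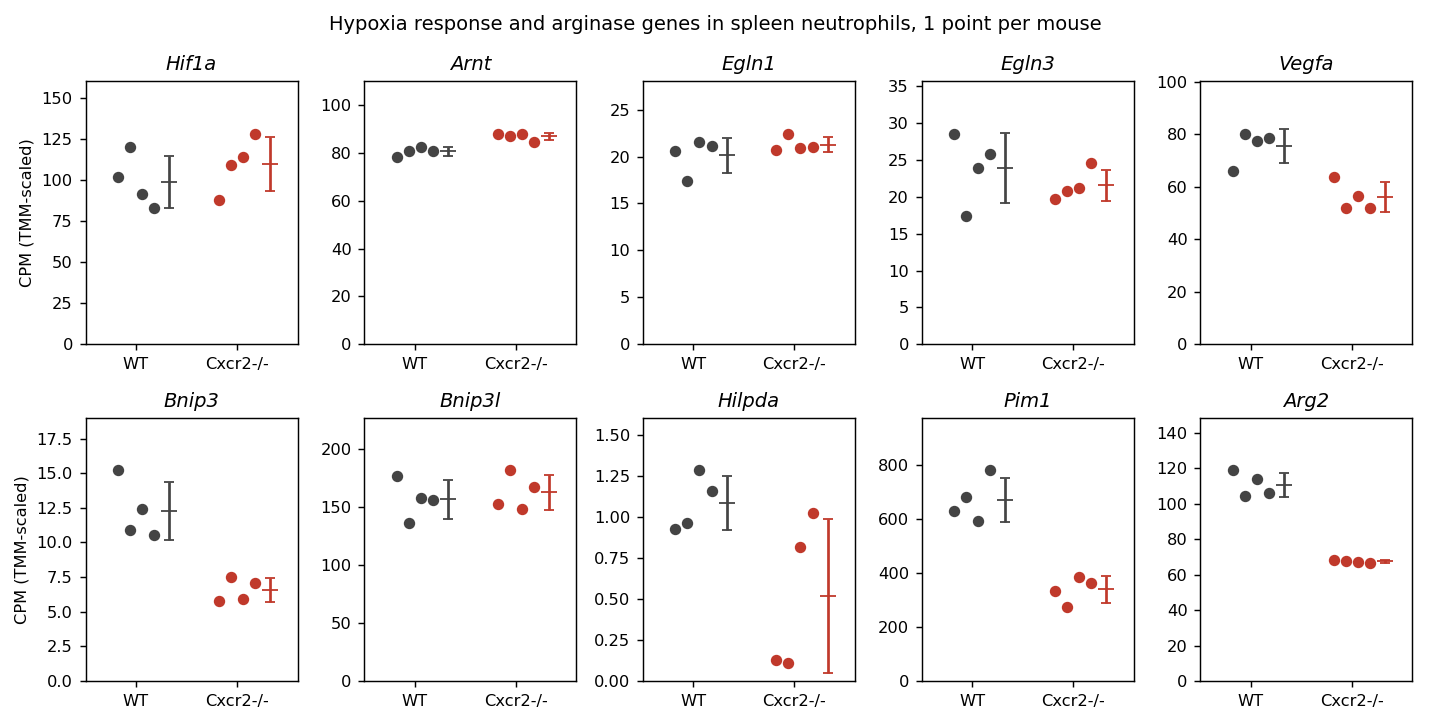
Level of each of the 10 genes in CPM (vertical axis, from 0, scaled separately for each gene) in 4 WT (grey) and 4 Cxcr2-/- (red) mice, 1 point per mouse, with the mean and SD beside the points. For Vegfa, Bnip3, Pim1 and Arg2 every Cxcr2-/- point lies below every WT point, and for Hilpda 2 Cxcr2-/- points lie near 0 while the other 2 lie at 0.813 and 1.02 CPM.

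Hif1a, which encodes the oxygen-regulated subunit (chromosome 12, 73901375 to 73947530, plus strand; positions here and below are those of GENCODE M21 on GRCm38), was at 102, 119.8, 91.3 and 83.1 CPM in the 4 WT mice and at 88.0, 109, 114 and 128 CPM in the 4 Cxcr2-/- mice. The groups overlapped, and the means of 98.9 ± 15.8 and 109.7 ± 16.6 CPM differed by a log2 fold change of 0.15 (SE 0.13, 95% interval -0.14 to 0.44, edgeR adjusted p = 0.390). The interval leaves room for a difference of either sign. An antisense gene on the opposite strand, Gm15283, shares 330 exon bases with Hif1a and held 3412 counts over the 8 libraries against 34013 for Hif1a. The strand setting of the counting is not given in the sources used here, so that how pairs on the shared bases were counted cannot be told. Pairs set aside as ambiguous between genes, 2.58% to 3.12% per library, are in no gene's count.

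Arnt, the constitutive partner of the alpha subunits (chromosome 3, 95434388 to 95497240, plus strand), was at 78.4, 81.0, 82.7 and 80.9 CPM in WT and at 88.1, 87.0, 88.1 and 84.8 CPM in Cxcr2-/- mice. Each Cxcr2-/- mouse lay above each WT mouse, as was so in that direction for 22.5% of all genes tested, but the difference was small (log2 fold change 0.11, SE 0.07, 95% interval -0.05 to 0.27) and did not pass (edgeR adjusted p = 0.264). With upper-quartile scaling it was -0.01. The log2 ratio of Hif1a to Arnt counts within a library, which does not depend on the scaling, was 0.28 ± 0.24 in WT and 0.32 ± 0.25 in Cxcr2-/- mice (difference 0.04, exact permutation test, two-sided, p = 0.914). The sign of this difference turned without WT replicate 3, without WT replicate 4 or without Cxcr2-/- replicate 4 (-0.0032, -0.04 and -0.05).

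Egln1, the prolyl hydroxylase that is the main oxygen sensor of most cells (chromosome 8, 124908587 to 124949324, minus strand), was at 20.6, 17.4, 21.5 and 21.1 CPM in WT and at 20.7, 22.4, 20.9 and 20.98 CPM in Cxcr2-/- mice. Its log2 fold change was 0.08 (SE 0.10, 95% interval -0.14 to 0.29, edgeR adjusted p = 0.554), and its sign turned with upper-quartile scaling (-0.04), with scaling by total counts (-0.01) and without WT replicate 2 (-0.0085). Egln3, a prolyl hydroxylase that is itself a HIF target in many tissues (chromosome 12, 54178981 to 54203860, minus strand), was at 28.6, 17.4, 23.9 and 25.8 CPM in WT and at 19.7, 20.7, 21.2 and 24.5 CPM in Cxcr2-/- mice. The groups overlapped, with the WT mice spanning the range of the Cxcr2-/- mice, and the log2 fold change was -0.15 (SE 0.14, 95% interval -0.46 to 0.16, edgeR adjusted p = 0.421). The log2 ratio of Egln1 to Egln3 was -0.23 ± 0.20 in WT and -0.02 ± 0.15 in Cxcr2-/- mice (difference 0.21, exact permutation test, two-sided, p = 0.171, and 0.229 adjusted over the 4 ratios tested).

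Around these genes, a list of 13 other oxygen-sensing genes (HIF alpha subunits, hydroxylases, the von Hippel-Lindau ligase and HIF coactivators) held 11 that were tested, of which 6 were higher, 1 was lower and 4 did not pass, with a median log2 fold change of 0.33. Over all genes tested 23.7% were higher and 21% lower. Cul2, the scaffold of the von Hippel-Lindau ligase, rose from 5.03 ± 1.20 CPM in WT to 9.47 ± 1.23 CPM in Cxcr2-/- mice (log2 fold change 0.91, edgeR adjusted p = 0.00153). Rbx1, the RING subunit of the same ligase, rose from 23.7 ± 2.92 to 37.2 ± 2.71 CPM (0.65, edgeR adjusted p = 3.44e-04). Cited2, which competes with HIF-1alpha for its coactivators, fell from 94.2 ± 8.35 to 74.9 ± 5.82 CPM (-0.33, edgeR adjusted p = 0.0119). These 3 genes had an adjusted p under 0.05 in each of 17 alternative fits, and the change of Cited2 was under 1.5-fold.

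The other 4 higher genes of that list, named here after their values were seen, were Elob, Egln2, Vhl and Hif1an. Elob, an adaptor of the ligase, rose from 35.5 ± 4.84 to 50.9 ± 3.09 CPM (0.52, edgeR adjusted p = 0.00177), and did not pass with the outside-gene covariate (0.34, edgeR adjusted p = 0.213). Egln2, the remaining prolyl hydroxylase, was at 40.1 ± 4.15 and 51.9 ± 6.84 CPM with overlap between the groups (0.37, edgeR adjusted p = 0.0158), and it lost its call with upper-quartile scaling (0.25, edgeR adjusted p = 0.0723), without WT replicate 2 (0.0575) and without WT replicate 3 (0.0652). With the outside-gene covariate the log2 fold change of Egln2 was 0.02 (edgeR adjusted p = 0.937). Vhl, which recognizes the hydroxylated alpha subunit, and Hif1an, the asparaginyl hydroxylase, had log2 fold changes of 0.33 and 0.27, and they lost their call in 12 and 9 of the 17 alternative fits. The list had 3 higher genes with upper-quartile scaling, 4 with DESeq2 and 2 with the outside-gene covariate, with 1 lower in each.

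**Figure D2:**
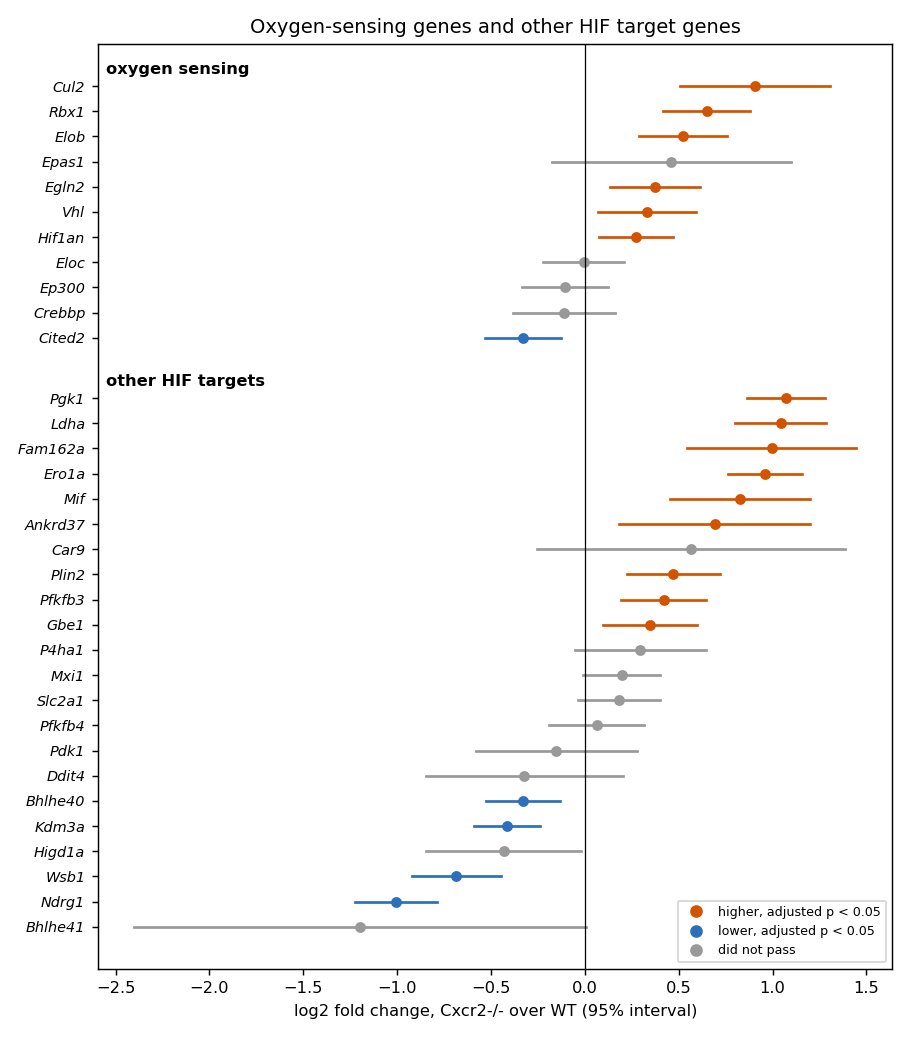
Log2 fold change of Cxcr2-/- over WT (horizontal axis) with its 95% interval for 11 oxygen-sensing genes and 22 other HIF target genes, orange where higher and blue where lower with an adjusted p under 0.05, grey where neither. Among the targets the glycolytic genes Pgk1 and Ldha lie near 1 and Ndrg1 near -1. HIF targets are found on each side of 0, as are all genes tested, of which 23.7% were higher and 21% lower.

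Vegfa, the growth factor that drives vessel formation and a classical HIF target (chromosome 17, 46016993 to 46032369, minus strand), was at 65.9, 80.2, 77.4 and 78.6 CPM in WT and at 63.8, 51.7, 56.3 and 51.9 CPM in Cxcr2-/- mice. The highest Cxcr2-/- mouse lay just under the lowest WT mouse and the others well below. The fall from 75.5 ± 6.52 to 55.9 ± 5.67 CPM, 1.35-fold, was a log2 fold change of -0.43 (SE 0.10, 95% interval -0.65 to -0.22, edgeR adjusted p = 0.00333), below the 1.5-fold that the study's methods asked for. Of 9 other genes of the VEGF family and its receptors 5 were tested, and 1 was higher and 2 were lower (over all genes tested, 23.7% and 21%). Nrp2, a neuropilin that serves as coreceptor for VEGF-C and semaphorins, rose from 1.22 ± 0.555 to 7.43 ± 1.62 CPM (log2 fold change 2.58, edgeR adjusted p = 2.80e-05).

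Flt1, a receptor that binds VEGF-A, fell from 1.38 ± 0.335 to 0.540 ± 0.323 CPM (-1.35, edgeR adjusted p = 0.0243). Nrp1, the neuropilin that is a coreceptor for VEGF-A, fell from 17.8 ± 1.30 to 13.8 ± 1.52 CPM (-0.36, edgeR adjusted p = 0.0192). Both calls were lost when certain single libraries were left out, with fold changes of the same sign and similar size. Flt1 was at -1.20 without WT replicate 2 (edgeR adjusted p = 0.0681) and at -1.29 without Cxcr2-/- replicate 1 (0.0527). Nrp1 was at -0.32 without WT replicate 1 (edgeR adjusted p = 0.0554) and at -0.31 without Cxcr2-/- replicate 2 (0.0624). Flt1 rested on 38 to 91 counts per WT library and 4 to 33 per Cxcr2-/- library. Flt1 also did not pass with the outside-gene covariate (-1.26, edgeR adjusted p = 0.250).

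Bnip3 and Bnip3l encode related receptors on the outer mitochondrial membrane that hand mitochondria to the autophagy machinery, and both are known HIF targets. Bnip3 (chromosome 7, 138890836 to 138909519, minus strand) was at 15.2, 10.9, 12.5 and 10.6 CPM in WT and at 5.76, 7.53, 5.92 and 7.07 CPM in Cxcr2-/- mice, with no overlap. It fell from 12.3 ± 2.12 to 6.57 ± 0.864 CPM, 1.87-fold (log2 fold change -0.90, SE 0.15, 95% interval -1.24 to -0.57, edgeR adjusted p = 4.44e-04). Bnip3l (chromosome 14, 66985239 to 67008877, minus strand) was at 177, 136, 158 and 156 CPM in WT and at 153, 182, 149 and 168 CPM in Cxcr2-/- mice. The groups of Bnip3l overlapped over most of their range, and its log2 fold change was 0.05 (SE 0.10, 95% interval -0.17 to 0.28, edgeR adjusted p = 0.699), with the opposite sign under upper-quartile and total-count scaling (-0.06 and -0.03) and without WT replicate 2 (-0.03).

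The log2 ratio of Bnip3 to Bnip3l counts was -3.54, -3.64, -3.67 and -3.88 in the WT mice and -4.73, -4.59, -4.65 and -4.57 in the Cxcr2-/- mice. The ratio was lower in each Cxcr2-/- mouse than in each WT mouse, by 0.95 on average. The exact permutation test, two-sided, gave p = 0.0286, the smallest value that 4 mice against 4 allow, and 0.0571 after adjustment over the 4 ratios tested, which did not pass. The Arg2 to Arg1 ratio below reached the same smallest value. With this number of mice the adjusted p of both was thus set by how many of the other ratios reached it.

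The promoters of these genes were searched for the HIF core motif, taken as ACGTG or GCGTG on either strand, in the 250 bases before the start that RefSeq gives on GRCm38.p6. Of the 10 genes 8 had such a window (none was used for Bnip3l or Arg2), and 3 of them, Vegfa, Hilpda and Pim1, had a window at each of 2 starts. Of these 11 windows 8 held a match, where 38.6% of 32851 promoter windows of the same length did. At the start nearest to the 5′ end of the gene in GENCODE M21, 5 of the 8 genes held a match (Hif1a, Arnt, Egln1, Egln3 and Bnip3), and Vegfa, Hilpda and Pim1 held none there but held matches at their other start. ACGTG alone was found at the nearest start of 4 of the 8 and in 16.6% of all windows. Of the genes that fell, Bnip3 is shown for its 5 matches (2 of ACGTG, which are the overlapping readings of 1 palindromic CACGTG, and 3 of GCGTG or its complement CACGC) and Vegfa, at its nearest start, for having none, and Egln3 is shown as a gene with 1 match that did not pass the test. Each is printed 5′ to 3′ on the minus strand, with matches in capitals, at chr7:138909507-138909756 (Bnip3), chr17:46032378-46032627 (Vegfa) and chr12:54203875-54204124 (Egln3).
Bnip3: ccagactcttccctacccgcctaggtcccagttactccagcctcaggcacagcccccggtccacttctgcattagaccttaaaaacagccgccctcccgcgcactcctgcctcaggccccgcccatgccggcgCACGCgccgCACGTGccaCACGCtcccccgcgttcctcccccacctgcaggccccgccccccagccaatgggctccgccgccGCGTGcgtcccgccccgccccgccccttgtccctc
Vegfa: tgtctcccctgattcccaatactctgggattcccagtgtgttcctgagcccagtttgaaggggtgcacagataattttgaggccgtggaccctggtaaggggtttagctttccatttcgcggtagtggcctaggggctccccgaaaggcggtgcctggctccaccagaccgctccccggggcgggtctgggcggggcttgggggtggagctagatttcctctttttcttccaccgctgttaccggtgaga
Egln3: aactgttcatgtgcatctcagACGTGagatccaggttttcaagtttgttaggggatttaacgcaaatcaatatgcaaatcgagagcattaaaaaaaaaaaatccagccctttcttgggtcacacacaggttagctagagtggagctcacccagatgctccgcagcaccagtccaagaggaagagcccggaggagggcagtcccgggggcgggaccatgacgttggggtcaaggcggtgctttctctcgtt
A match is a description of these letters and is no evidence of binding, which was not measured in these cells.

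Among 13 other mitophagy genes, each of them tested, 3 were higher, 2 were lower and 8 did not pass, with a median log2 fold change of 0.02. The shares over all genes tested were 23.7% higher and 21% lower. With upper-quartile scaling 2 were higher and 3 lower, and with the outside-gene covariate 1 was higher and 2 were lower. Bcl2l1, the survival protein BCL-XL, rose from 29.1 ± 3.15 to 50.8 ± 5.24 CPM (0.80, edgeR adjusted p = 6.89e-05), and Phb2, a prohibitin of the inner mitochondrial membrane, from 13.9 ± 1.75 to 19.3 ± 1.76 CPM (0.48, edgeR adjusted p = 0.00541). Phb2 did not pass with the outside-gene covariate (0.23, edgeR adjusted p = 0.415). Map1lc3b, the autophagosome protein LC3B that binds both receptors, fell from 445 ± 55.2 to 299 ± 14.2 CPM (-0.57, edgeR adjusted p = 7.41e-04). Gabarapl1, of the same protein family, fell from 7.05 ± 1.29 to 4.79 ± 0.723 CPM (-0.56, edgeR adjusted p = 0.0198), and it lost its call without WT replicate 2 (0.0657), without Cxcr2-/- replicate 1 (0.0539) and with the outside-gene covariate (-0.52, edgeR adjusted p = 0.238).

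**Figure D3:**
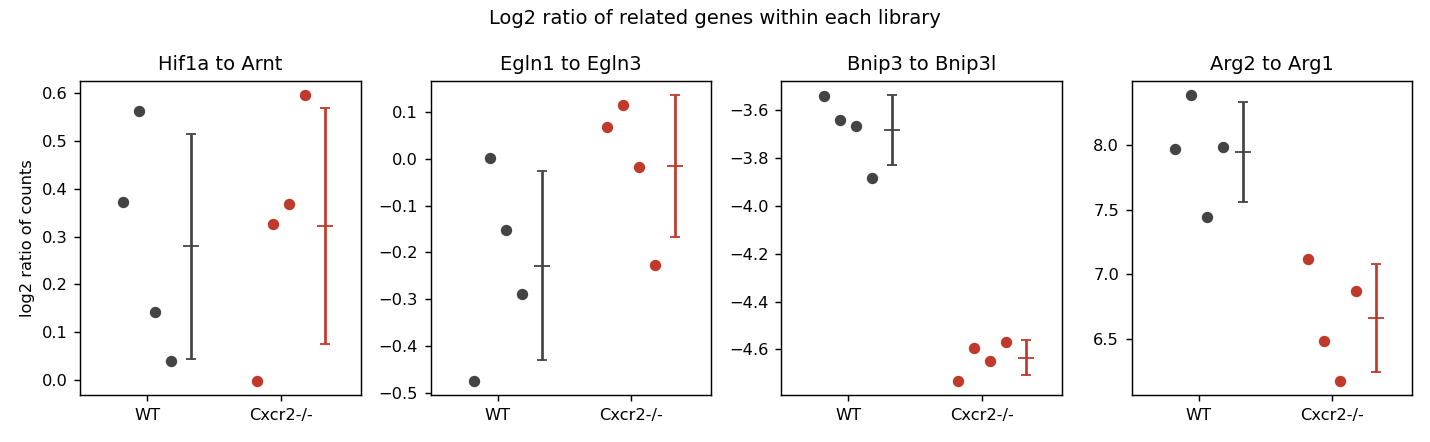
Log2 ratio of the counts of related genes within each library (vertical axis, scaled separately for each pair) in 4 WT (grey) and 4 Cxcr2-/- (red) mice, with mean and SD. The groups are separate for Bnip3 to Bnip3l and for Arg2 to Arg1, at an adjusted p of 0.0571 each, and overlap for Hif1a to Arnt and Egln1 to Egln3.

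Hilpda, a small lipid droplet protein induced by hypoxia that restrains triglyceride breakdown (chromosome 6, 29272488 to 29275446, plus strand), was the least abundant of the 10 genes. It was at 0.929, 0.965, 1.28 and 1.16 CPM in WT and at 0.126, 0.111, 0.813 and 1.02 CPM in Cxcr2-/- mice, which rested on 42, 48, 48 and 40 counts and on 5, 4, 32 and 42 counts. Cxcr2-/- replicates 1 and 2 were nearly devoid of it, replicate 3 was just under the WT mice and replicate 4 was among them. The log2 fold change of -1.05 (SE 0.56, 95% interval -2.25 to 0.16) did not pass (edgeR adjusted p = 0.148). Without Cxcr2-/- replicate 4 it was -1.62 and passed (edgeR adjusted p = 0.0376).

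Of 9 lipid droplet and lipolysis genes, each of them tested, 4 were higher, 3 lower and 2 did not pass, with a median log2 fold change of 0.10. Over all genes tested 23.7% were higher and 21% lower. The counts of 4 and 3 were the same under each scaling, while with the outside-gene covariate 2 were higher and 2 lower. Plin3, a perilipin that coats droplets, rose from 43.4 ± 3.98 to 89.0 ± 10.0 CPM (1.04, edgeR adjusted p = 6.99e-06). Dgat2, which makes triglyceride, rose from 121 ± 17.1 to 188 ± 20.7 CPM (0.63, edgeR adjusted p = 8.78e-04), and did not pass with the outside-gene covariate (0.31, edgeR adjusted p = 0.245). Pnpla2, the triglyceride lipase that HILPDA inhibits, fell from 250.2 ± 18.9 to 131 ± 19.2 CPM (-0.93, edgeR adjusted p = 3.90e-05). G0s2, the other inhibitor of that lipase, fell from 60.8 ± 11.6 to 42.3 ± 9.61 CPM (-0.52, edgeR adjusted p = 0.0244), a call that was lost without WT replicate 3 (-0.40, edgeR adjusted p = 0.0749) and with the outside-gene covariate (-0.51, edgeR adjusted p = 0.270).

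Pim1, a serine/threonine kinase induced through STAT5 downstream of cytokine receptors such as that for G-CSF (chromosome 17, 29490753 to 29496112, plus strand), was at 629.8, 679, 593 and 779 CPM in WT and at 334, 272, 386 and 363 CPM in Cxcr2-/- mice. Each Cxcr2-/- mouse was well below the lowest WT mouse. Pim1 fell from 670.3 ± 80.7 to 339 ± 49.0 CPM, 1.98-fold (log2 fold change -0.98, SE 0.13, 95% interval -1.26 to -0.71, edgeR adjusted p = 5.64e-05). The antisense gene Gm26885 shares 488 exon bases with it but held 62 counts against 164582 for Pim1.

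The 2 other Pim kinases differed in level and in test result. Pim3 was at 32.1, 31.5, 29.05 and 29.4 CPM in WT and at 6.42, 7.33, 13.9 and 13.4 CPM in Cxcr2-/- mice, and fell from 30.5 ± 1.51 to 10.3 ± 3.93 CPM (-1.57, edgeR adjusted p = 9.04e-05). The Cxcr2-/- replicates that were lowest for Pim3 were also those nearly devoid of Hilpda, and Pim3 kept its call in each of 17 alternative fits. Pim2, named after its values were seen, was at 1.99 and 1.58 CPM on average and did not pass (-0.33, edgeR adjusted p = 0.248).

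In the list of 8 Pim and STAT5 pathway genes, Pim1 left out, 2 were higher, 3 lower and 3 did not pass, with a median log2 fold change of -0.28. The shares over all genes tested were 23.7% higher and 21% lower. Cish, a feedback inhibitor that STAT5 induces, rose from 1.23 ± 0.204 to 4.06 ± 1.33 CPM (1.72, edgeR adjusted p = 1.42e-04). Bad, the death-promoting protein that Pim kinases phosphorylate, rose from 10.6 ± 2.53 to 17.2 ± 2.12 CPM (0.70, edgeR adjusted p = 0.00516). Stat5b itself fell from 351 ± 35.1 to 239 ± 28.4 CPM (-0.55, edgeR adjusted p = 0.00153), and held with the outside-gene covariate. With that covariate neither Cish (1.31, edgeR adjusted p = 0.0729) nor Bad (0.31, edgeR adjusted p = 0.453) passed, and no gene of the list was higher while 3 were lower.

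Arg2, the mitochondrial arginase that splits arginine into ornithine and urea (chromosome 12, 79130777 to 79156301, plus strand), was at 119, 104, 114 and 106 CPM in WT and at 68.3, 67.9, 67.0 and 66.8 CPM in Cxcr2-/- mice. The Cxcr2-/- mice were close to each other and well below each WT mouse. Arg2 fell from 111 ± 6.86 to 67.5 ± 0.725 CPM, 1.64-fold (log2 fold change -0.71, SE 0.08, 95% interval -0.89 to -0.54, edgeR adjusted p = 1.78e-05). On the opposite strand Vti1b shares 285 exon bases with Arg2 (10943 counts over the 8 libraries against 29041 for Arg2) and rose (0.37, edgeR adjusted p = 0.00429), and Gm48780 shares 116 (2235 counts) and fell (-0.75, edgeR adjusted p = 0.00130). How reads of the shared bases were counted cannot be told without the strand setting.

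Arg1, the cytosolic arginase that marks suppressive myeloid cells, was nearly absent in these neutrophils, with means of 0.453 ± 0.142 and 0.675 ± 0.195 CPM in the WT and Cxcr2-/- mice (14 to 36 counts per library), and did not pass (0.58, edgeR adjusted p = 0.211). The log2 ratio of Arg2 to Arg1 was 7.97, 8.39, 7.44 and 7.98 in WT and 7.12, 6.48, 6.18 and 6.87 in Cxcr2-/- mice. It was lower in each Cxcr2-/- mouse, by 1.29 on average (exact permutation test, two-sided, p = 0.0286, the smallest value that 4 mice against 4 allow, and 0.0571 adjusted over the 4 ratios). Of 16 genes of arginine and polyamine metabolism 14 were tested, and 4 were higher, 1 lower and 9 did not pass, with a median log2 fold change of 0.26. Over all genes tested 23.7% were higher and 21% lower. For this list upper-quartile scaling gave 1 higher and 2 lower and the outside-gene covariate 1 of each.

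Asl, which makes arginine in the urea cycle, rose from 14.7 ± 0.867 to 23.1 ± 1.22 CPM (0.65, edgeR adjusted p = 1.38e-04). Azin1, an antizyme inhibitor that raises polyamine synthesis, rose from 158 ± 9.68 to 210.3 ± 32.8 CPM (0.41, edgeR adjusted p = 0.0104), a call lost with upper-quartile scaling (0.30, edgeR adjusted p = 0.0535) and with the outside-gene covariate (0.43, edgeR adjusted p = 0.153). Sat1, which starts polyamine breakdown, fell from 453 ± 28.9 to 321 ± 21.9 CPM (-0.50, edgeR adjusted p = 9.62e-04). Asl and Sat1 had an adjusted p under 0.05 in each of 17 alternative fits, and the change of Sat1 was under 1.5-fold.

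**Figure D4:**
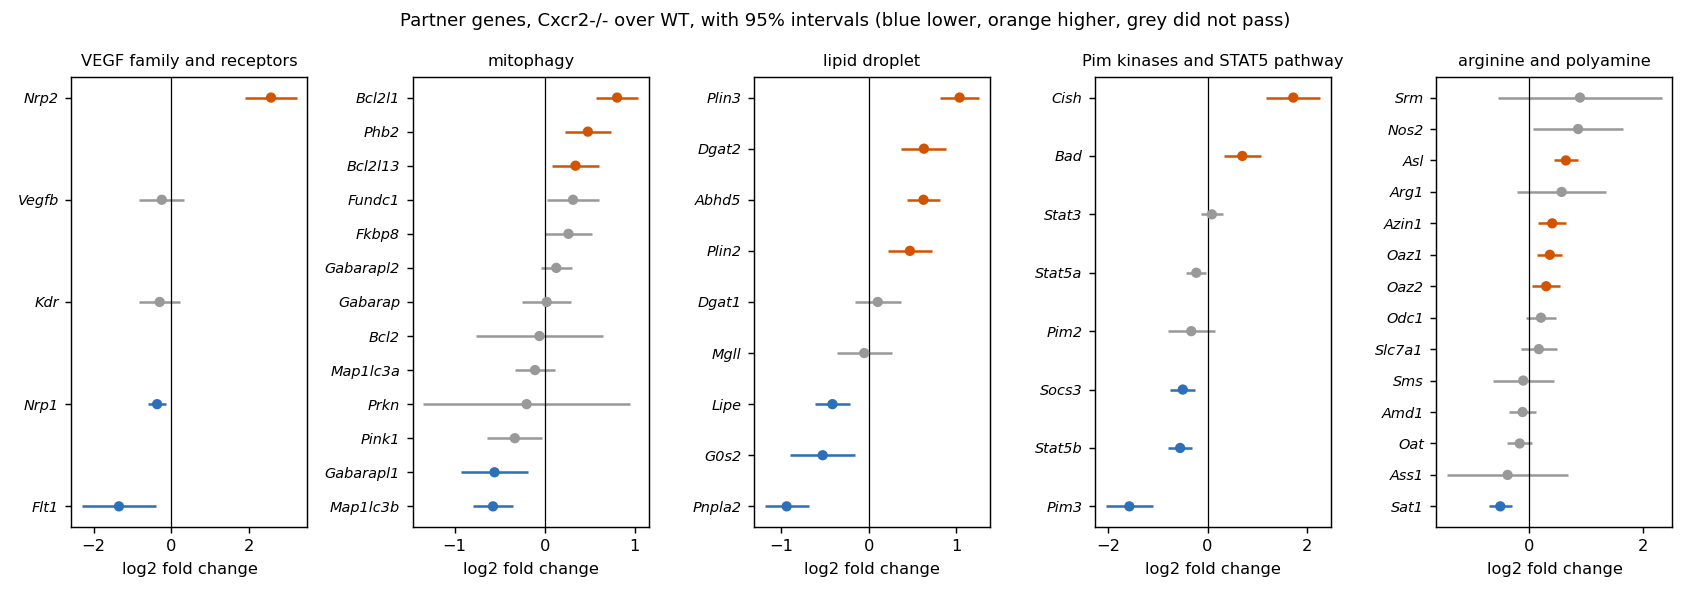
Log2 fold change of Cxcr2-/- over WT (horizontal axis, scaled separately for each list) with its 95% interval for the tested genes of 5 lists, orange where higher, blue where lower and grey where the adjusted p was not under 0.05. Each list has genes on both sides, from Nrp2 at 2.58 to Flt1 at -1.35 among VEGF genes and from Cish at 1.72 to Pim3 at -1.57 in the Pim and STAT5 list. The same holds for all genes tested, of which 23.7% were higher and 21% lower.

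Beyond Vegfa, Bnip3 and the other genes above, 25 genes known as HIF targets were listed. Of these 22 were tested, with 9 higher, 4 lower and 9 that did not pass, and a median log2 fold change of 0.25. Over all genes tested 23.7% were higher and 21% lower, so that calls on each side are not particular to these targets. With upper-quartile scaling 7 were higher and 5 lower, and with the outside-gene covariate 3 and 2. Over all genes 3076 were higher and 4391 lower with the upper quartile. The outside-gene covariate gave 1599 and 1486 over all genes, and the main fit 3969 and 3526. Pgk1 (phosphoglycerate kinase) rose from 75.6 ± 7.29 to 159 ± 10.7 CPM (1.07, edgeR adjusted p = 3.02e-06) and Ldha (lactate dehydrogenase A) from 234 ± 23.4 to 482 ± 57.2 CPM (1.04, edgeR adjusted p = 1.27e-05). Ndrg1, a stress-response gene, fell from 125 ± 5.99 to 62.1 ± 7.68 CPM (-1.01, edgeR adjusted p = 6.79e-06) and Wsb1, a ubiquitin ligase adaptor, from 193 ± 20.3 to 120.1 ± 13.5 CPM (-0.68, edgeR adjusted p = 2.77e-04). These 4 genes kept their call in each of 17 alternative fits. Of others named after their values were seen, Ero1a, an oxidase of protein folding, rose (0.96, edgeR adjusted p = 4.61e-06), Kdm3a, a histone demethylase, fell (-0.41, edgeR adjusted p = 0.00129, and 0.158 with the outside-gene covariate), and the glucose transporter Slc2a1 did not pass (0.18, edgeR adjusted p = 0.168). Bnip3, Ndrg1 and Wsb1 were thus on the lower side and Pgk1, Ldha and Ero1a on the higher side within one group of known targets. Over the 7 lists together 81 of 92 genes were tested, and 28 were higher and 16 lower, with a median log2 fold change of 0.13 beside 0.01 for all genes. This balance depended on the scaling, with 19 higher and 20 lower under the upper quartile and 22 and 18 under total counts, and the outside-gene covariate left 10 higher and 12 lower.

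**Figure D5:**
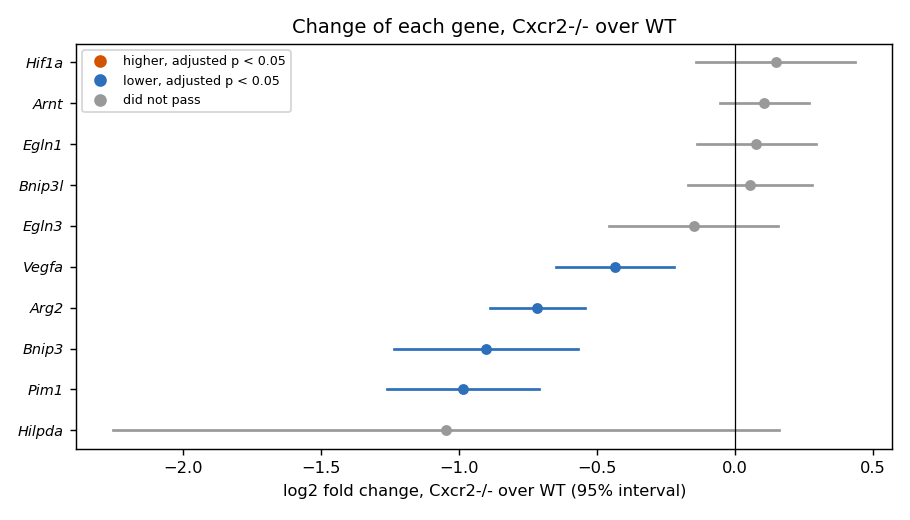
Log2 fold change of Cxcr2-/- over WT (horizontal axis) with its 95% interval for each of the 10 genes, blue where lower with an adjusted p under 0.05 and grey where it did not pass. The intervals of Vegfa, Arg2, Bnip3 and Pim1 lie below 0, from -0.43 for Vegfa to -0.98 for Pim1, and that of Hilpda is the widest.

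Compared per length of exon (RPKM, CPM divided by the exon length in kilobases), Pim1 was the most abundant of the 10 genes in each group, at 199 in WT and 101 in Cxcr2-/- mice. In WT it was followed by Arg2 (77.6 ± 4.80 RPKM), Bnip3l (40.7), Vegfa (17.6), Hif1a (16.8), Arnt (10.1), Egln3 (8.98), Egln1 (5.61), Bnip3 (5.42) and Hilpda (0.982). The neighbours Vegfa and Hif1a, Arnt and Egln3, and Egln1 and Bnip3 overlapped between mice. In Cxcr2-/- mice Arg2 (47.3 ± 0.508 RPKM) and Bnip3l (42.2) overlapped, and the mean of Hif1a (18.6) stood above that of Vegfa (13.1). In Cxcr2-/- replicate 1 Hif1a and Vegfa were practically level (14.92 and 14.90 RPKM). Bnip3 was the lowest of these genes but for Hilpda, at 2.90 RPKM.

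Profiles across the 8 libraries were compared by the root mean square difference of centred log2 CPM, over 6901 genes with a mean of at least 10 CPM. The closest to Hif1a were Nipa2 (0.0941), U2surp (0.0955) and Set (0.102). Those closest to Arg2 were Eif1 (0.0292), Rcbtb2 (0.0551) and Vrk1 (0.0556), with log2 fold changes of -0.71, -0.69 and -0.74. These distances are descriptions over 8 libraries in 2 groups.

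Other groups of genes differed along with these. The counts that follow stand beside 23.7% of all genes tested that were higher and 21% that were lower. Of 10 immediate early genes, which are induced within minutes of stimulation or handling, 9 were lower, with a summed level of 10763 to 12050 CPM in WT and 1590 to 3294 CPM in Cxcr2-/- libraries. Of 8 markers of neutrophil precursors, granule proteins made before full maturation, all 8 were higher, at 19820 to 24377 CPM and 46563 to 68066 CPM in sum. Of 39 markers of other blood cells 30 were tested, with 4 higher and 10 lower, and they summed to 908 to 1145 CPM in WT and 1035 to 1176 CPM in Cxcr2-/- libraries. Within that sum the B cell list and the monocyte and macrophage list moved apart in their summed levels. Of 5 B cell markers 4 were lower (59.3 to 132 CPM in sum in WT and 26.5 to 58.2 CPM in Cxcr2-/- libraries). Of 7 monocyte and macrophage markers 2 were lower and 2 higher (681 to 811 CPM and 843 to 961 CPM in sum), among them, named after their values were seen, Csf1r at -0.93 and Ly6c2 at 1.39 on the log2 scale. Of 4 eosinophil markers 2 were higher and 2 lower (48.8 to 68.9 CPM and 37.6 to 64.1 CPM in sum). Cd3e was at or near 0 and no T cell marker passed, although Cd3d, named after its values were seen, was at 99.1 and 108 CPM on average. Siglech, Klf1, Pf4, Ppbp, Mcpt8, Cpa3 and Fcer1a were at or near 0, while among others of these lists, named after their values were seen, Zbtb46 averaged 6.51 CPM in WT and 3.08 CPM in Cxcr2-/- libraries and Itga2b 4.58 and 3.09 CPM. With a score of these markers as a covariate the same number of genes, 4 of the 10, was lower. The score is a mean over lists that moved apart and hardly differed between groups (1.76 to 2.18 in WT and 1.62 to 2.25 in Cxcr2-/- libraries). It therefore cannot follow the content of single cell types. With the outside-gene covariate Pim1, Bnip3 and Arg2 remained lower while Vegfa did not pass (-0.34, edgeR adjusted p = 0.197). The SE of Vegfa was 0.17 in that fit and 0.10 in the main fit. That covariate largely followed genotype, and why the call was lost was not tested. The part of the immediate early genes and of the precursor genes in the changes of Pim1, Bnip3, Arg2 and Vegfa was not tested.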

How the data were processed

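Gene expression was measured by RNAseq in 4 WT and 4 Cxcr2-/- spleen neutrophil samples, 1 library per mouse, grouped by the sample labels. Same-numbered mice of the groups are different animals. The authors depleted ribosomal RNA, made directional libraries, trimmed the reads (FastQC was used for quality), ran STAR against mm10 and counted with HTSeq, and they deposited whole-number counts per Ensembl gene without normalization. Tool versions, the strand setting and the annotation release are not given in the sources used here. GENCODE M21 (GRCm38) holds 52081 of the 55414 identifiers, 52044 of them with a newer version number, so that the counting used a later release, and 1.43% of counts lay on genes without an entry. Positions, overlaps and exon lengths given here are those of M21 and may differ from those used in the counting. Counts that the files give to no gene, 47.6% of all, stayed out of library sizes and tests.

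Counts were tested with edgeR 4.0.16 in R 4.3.3 (quasi-likelihood test, TMM, filterByExpr, Benjamini-Hochberg over 16778 genes), and a call is an adjusted p under 0.05. The biological coefficient of variation was 0.202, and no replicates within a group agreed within counting error (21.6 to 88.5 chi-square units per gene). Log2 ratios used counts plus 0.5 and an exact permutation test in scipy 1.17.1. RPKM used exon lengths of GENCODE M21. The edgeR and DESeq2 fits were tested on simulated counts and the permutation test on made-up numbers. Only a small share of genes changed in the simulation, where 44.7% of genes were called in the data. It therefore cannot check the scaling under so broad a change. The 10 genes and the pathway lists were chosen with earlier results of these data known. Of each list the text names the 2 called genes that changed most each way and the second gene of each ratio, for Hif1a and Arg2 the 3 genes with the closest profile, and others only where said. The alternatives were DESeq2 1.42.0, RLE, upper-quartile and total-count scaling, other filters, 1.5-fold, a replicate block, a covariate for markers of other cells and each library left out. A covariate for the share of read pairs matched to no gene feature was added after the data were seen.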

Additional observations from a re-analysis of the deposited data

Results flagged for a closer look

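In the Cxcr2-/- group the level of Egln1 was 22.4 CPM in replicate 2 and 20.7 to 20.98 CPM in the other 3 mice, and the gap of the highest mouse to its nearest neighbour was 0.831 of the whole range of the group, just above Dixon's critical value for 4 samples. Chance gives such a gap in about 1 of 20 groups, and 28 groups were examined. The highest WT mouse was at 21.5 CPM, and Egln1 did not pass the test with or without Cxcr2-/- replicate 2.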

How the results depend on the processing

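Pim1, Bnip3 and Arg2 were lower with an adjusted p under 0.05 in each of 17 alternative fits, and Vegfa in 16 of 17. The exception for Vegfa was the fit with the share of read pairs matched to no gene feature as a covariate (-0.34, edgeR adjusted p = 0.197). That share largely followed genotype. The change of Vegfa was also under a 1.5-fold minimum. The number of lower genes among the 10 was 3 with that covariate and with a 1.5-fold minimum, 4 to 5 when single libraries were left out and 4 otherwise, and 0 were higher throughout. The lists, with 28 higher and 16 lower genes, had 19 higher and 20 lower with the upper quartile, 22 and 18 with total counts, 10 and 12 with that covariate, 16 higher and 5 lower with the 1.5-fold minimum, and 21 to 27 higher and 15 to 18 lower when single libraries were left out. Signs turned for Arnt (-0.0121, upper quartile), Egln1 (-0.0411 with the upper quartile, -0.0091 with total counts, and -0.00846 to 0.103 when single libraries were left out), Bnip3l (-0.064 with the upper quartile, -0.0641 with the covariate, -0.0299 with total counts, and -0.0301 to 0.12 when single libraries were left out) and the Hif1a to Arnt ratio (-0.0486 to 0.15 when single libraries were left out), none of which passed in any alternative, and the cause was not tested. Hilpda passed without Cxcr2-/- replicate 4 (-1.62, edgeR adjusted p = 0.0376) and was not tested with at least 10 counts in every library. With a replicate block 4 of the 10 genes were lower, and the lists had 26 higher and 17 lower. Same-numbered mice did not deviate together (correlations of 0.11, -0.174, 0.143 and -0.242), and with the block no ratio can pass (smallest p 0.125). Without 1 library the smallest p of a ratio is 0.0571. Over all genes 3526 were lower and 3969 higher with TMM, 4391 and 3076 with the upper quartile, and 1486 and 1599 with the covariate for pairs matched to no gene feature. Depth limits Hilpda, with 4 to 48 counts per library, and Arg1.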
